A study of Mus musculus with 20 samples.

Results

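Chromatin accessibility at the end of 2 reprogramming time courses was compared with that of embryonic stem cells (ESCs). Mouse embryonic fibroblasts (MEFs) were transduced with retroviruses carrying Oct4 together with native Nanog (Nanog+Oct4) or with NanogN70 (NanogN70+Oct4), a NANOG to which an N-terminal stretch of SS18, which belongs to the BAF remodeling complex, was fused. The late libraries were Day 10 and Day 12 of each pair of factors, 4 in all, and they were set against 3 ESC libraries by the rule that a region is missing when all 3 ESC libraries and no late library had a peak in it, and excess when all 4 late libraries and no ESC library had one. Of 335775 regions formed by merging the peaks of all 20 libraries, 160144 were open in at least 1 of these 7 libraries. Of these 32257 (20.1%) were missing and 1903 (1.19%) were excess.

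The MEFs came from E13.5 embryos of OG2 males crossed with 129 females and carried an Oct4-GFP reporter, and the ESCs were derived from OG2 embryos and grown without feeders in N2B27 with 2i and LIF. Transduced cells were kept in iCD3 medium and moved to N2B27 with 2i and LIF after 7 days or at a designed time point. On the 7-day schedule all 4 late libraries and the ESCs shared that medium. The virus was a pMXs vector, and the methods name no sorting of the cells collected for ATAC-seq. Each late library is the only one of its day and path, so the 4 are not replicates of 1 condition, whereas the ESC libraries are numbered replicates. Nothing in the sources used here says that the ESC replicates came from separate cultures. The p-values below therefore describe only how far these libraries separate and not other cultures. In a bulk library, fewer cells with an open site and a less open site in every cell cannot be told apart. The source field of the ESC samples names MEFs while their titles name ESCs, and they were grouped by title. The promoter of Zfp42, a marker of naive pluripotency, had summit pileups of 59, 91 and 53 tags in the ESC libraries and no peak in MEFs. The promoter of the collagen gene Col3a1 had a pileup of 20 in MEFs and no peak in any ESC library.

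In ATAC-seq the transposase Tn5 cuts accessible DNA, and a peak marks a promoter or a distal element such as an enhancer. Fibroblast enhancers typically carry sites for AP-1, TEAD and RUNX factors, and pluripotent enhancers carry sites for OCT4, SOX2, KLF factors and ESRRB. During reprogramming the fibroblast elements close and the pluripotency elements open, and naive cells in 2i and LIF use enhancers of their own.

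The sequences below show the strongest members. They are 3 missing and 2 excess regions from the top by their lowest score rank among their libraries, on the autosomes used for sequences, followed by the strongest missing region of a pluripotency gene (Dppa2) and the strongest excess region of a fibroblast gene (Col1a1). The regions at the promoters of Nanog and Dppa4 were added after their values were seen, because both hold the joint OCT-SOX motif. Each is the plus strand of the GRCm38 (mm10) RefSeq genome, 100 bp on either side of the summit, and capitals mark matches to the 18 motifs described further on. The coordinates are chr1:143555585-143555785 (intergenic, 80511 bp from the start of Cdc73), chr6:137669385-137669585 (intergenic, 14131 bp from Eps8), chr6:108071032-108071232 (intron of Setmar), chr9:96971960-96972160 (promoter of Spsb4), chr1:74797449-74797649 (intron of Wnt10a), chr16:48303541-48303741 (promoter of Dppa2), chr11:94928831-94929031 (intergenic, 6956 bp from Col1a1), chr6:122707375-122707575 (promoter of Nanog) and chr16:48283625-48283825 (promoter of Dppa4).
Missing, near Cdc73: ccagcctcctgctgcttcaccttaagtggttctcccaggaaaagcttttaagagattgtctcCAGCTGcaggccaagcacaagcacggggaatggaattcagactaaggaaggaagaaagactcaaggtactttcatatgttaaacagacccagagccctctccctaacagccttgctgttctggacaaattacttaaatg
Missing, near Eps8: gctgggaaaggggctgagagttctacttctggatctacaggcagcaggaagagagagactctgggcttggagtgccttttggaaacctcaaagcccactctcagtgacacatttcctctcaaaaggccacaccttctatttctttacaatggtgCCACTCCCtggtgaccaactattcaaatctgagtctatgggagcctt
Missing, in Setmar: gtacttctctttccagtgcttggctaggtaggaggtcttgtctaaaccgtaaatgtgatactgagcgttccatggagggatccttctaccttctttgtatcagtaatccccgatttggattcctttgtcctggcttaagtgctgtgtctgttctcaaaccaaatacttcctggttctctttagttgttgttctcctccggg
Excess, at Spsb4: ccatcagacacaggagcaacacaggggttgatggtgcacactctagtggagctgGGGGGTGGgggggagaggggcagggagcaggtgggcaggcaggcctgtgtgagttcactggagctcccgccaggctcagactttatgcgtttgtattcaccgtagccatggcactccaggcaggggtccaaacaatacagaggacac
Excess, in Wnt10a: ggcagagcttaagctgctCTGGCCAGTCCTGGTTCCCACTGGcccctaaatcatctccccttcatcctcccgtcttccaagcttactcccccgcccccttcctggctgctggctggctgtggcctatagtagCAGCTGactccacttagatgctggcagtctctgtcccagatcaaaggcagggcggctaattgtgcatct
Missing, at Dppa2: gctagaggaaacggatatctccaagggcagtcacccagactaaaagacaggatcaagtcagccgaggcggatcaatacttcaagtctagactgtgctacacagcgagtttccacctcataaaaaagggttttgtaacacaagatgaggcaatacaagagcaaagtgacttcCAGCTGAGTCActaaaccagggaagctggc
Excess, near Col1a1: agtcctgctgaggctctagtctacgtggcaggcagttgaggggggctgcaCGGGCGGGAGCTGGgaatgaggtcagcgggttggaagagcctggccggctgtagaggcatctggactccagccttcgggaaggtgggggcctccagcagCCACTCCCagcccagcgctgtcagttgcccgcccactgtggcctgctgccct
Missing, at Nanog: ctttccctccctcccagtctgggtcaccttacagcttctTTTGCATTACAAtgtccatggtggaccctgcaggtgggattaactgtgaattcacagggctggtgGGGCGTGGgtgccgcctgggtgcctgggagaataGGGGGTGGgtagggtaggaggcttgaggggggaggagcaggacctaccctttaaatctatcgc
Missing, at Dppa4: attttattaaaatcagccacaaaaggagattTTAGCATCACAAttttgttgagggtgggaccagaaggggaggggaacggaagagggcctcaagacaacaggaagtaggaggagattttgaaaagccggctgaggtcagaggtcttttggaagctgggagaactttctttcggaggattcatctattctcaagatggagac

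The late libraries held fewer peaks than the ESC libraries, which bears on every count below. There were 108671, 116006 and 97450 peaks in the ESC libraries, 50716 and 48843 in Nanog+Oct4 on days 10 and 12, 44126 and 54272 in NanogN70+Oct4 on days 10 and 12, and 125467 in MEFs. No source used here gives read numbers, and the depth of the libraries is unknown. At the 19264 regions open in all 7 libraries the median pileup was 24 to 31 tags in ESCs, 17 and 18 in the Nanog+Oct4 libraries, and 21 and 30 in the NanogN70+Oct4 libraries. Of the regions shared by MEFs and the 3 ESC libraries, the late libraries had a peak in 70.9%, 71.9%, 73.2% and 77.6% in the same order. Each late library therefore lacked peaks at some sites shared by the starting and the target cells, and open sites may lie below the limit of detection. By promoter peaks, 10 of 10 ESC markers were open in each ESC library, 5 to 9 in the late libraries and 8 in MEFs. Of 12 fibroblast markers 4 to 10 were open in the late libraries, 8 to 10 in ESCs and all 12 in MEFs, so a promoter peak did not separate these cell types well. Of 12 leukocyte markers, 1 to 3 had a promoter peak in the late libraries and 6 to 8 in ESCs.

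Close to every other ESC site was missing from the late cells. The 32257 missing regions were 47.6% of the 67821 regions open in all 3 ESC libraries (95% exact binomial interval 47.2% to 47.9%, which covers counting error only, as do all intervals of shares below), whereas 19264 (28.4%) were open in all 4 late libraries. The excess regions were 8.53% of the 22318 regions open in all 4 late libraries (8.16% to 8.9%), and 86.3% of those 22318 were open in all 3 ESC libraries. A further 7188 regions were open in all 3 ESC libraries and in 1 late library. In 4193 of these the late library was NanogN70+Oct4 on day 12, against 1201 for NanogN70+Oct4 on day 10, 1016 for Nanog+Oct4 on day 10 and 778 for Nanog+Oct4 on day 12. The NanogN70 day 12 library was thus the late library with the most ESC sites of its own, and it also had the highest pileup of the 4 at regions open in all 7. Both late Nanog+Oct4 libraries lacked 58.6% of the ESC sites (58.2% to 59.0%), and both late NanogN70+Oct4 libraries lacked 50.9% (50.5% to 51.3%).

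The number of missing regions depended on how many peaks were admitted. With each of the 7 libraries cut to its 44098 best peaks, 10237 regions were missing, of which 9109 were also missing with all peaks. The number of excess regions then rose to 3334, of which 1571 were excess with all peaks. It fell to 937 at a minimum score of 100, to 594 when only the late peaks needed that score, and to 867 when peaks had to cover at least 0.5 of the region. The excess set turned on 1 library as well. Without Nanog+Oct4 day 10, 4120 regions were open in the other 3 late libraries and in no ESC library, and 2217 of these lacked a peak on Nanog+Oct4 day 10 alone. At the edge of the rule, regions open in all 3 ESC libraries and 1 late library had a median score of 66.6 in that late library, close to the lowest score in the files of 50.

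Missing and excess regions differed in MEF state, and both held a smaller share of MEF sites than the regions they were drawn from. Of the missing regions 4106 were open in MEFs (12.7%, 12.4% to 13.1%) and 28151 were closed, so most missing sites had no peak in the starting cells. For comparison, 31.5% of all regions open in any of the 7 libraries and 95.9% of those open in all 7 were open in MEFs. Among ESC sites closed in MEFs, 77.2% were missing (76.7% to 77.6%), and among ESC sites open in MEFs 13.1% were (12.7% to 13.5%). The late libraries had a peak in 4.52% (Nanog+Oct4 day 10), 7.23% (Nanog+Oct4 day 12), 10.6% (NanogN70+Oct4 day 10) and 18.6% (NanogN70+Oct4 day 12) of the ESC sites closed in MEFs. These shares were higher in both NanogN70+Oct4 libraries than in both Nanog+Oct4 libraries, with no replicate to test the difference. The excess set was divided between the states, with 989 regions open in MEFs (52.0%, 49.7% to 54.2%) and 914 closed in both MEFs and ESCs. This share also turned on Nanog+Oct4 day 10, since without that library 1332 of 4120 excess regions (32.3%) were open in MEFs and 2788 were closed. With equal peak numbers 68.8% of the excess regions were open in MEFs. Over all regions open in all 4 late libraries the share with all peaks was 91.1%.

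ESC sites closed in MEFs were missing more often than those open in MEFs at every level of peak strength. Regions open in all 3 ESC libraries were ranked by the lowest of their 3 within-library score ranks and divided into 10 bins of equal size. In the weakest bin 88.9% of the sites closed in MEFs were missing (88.0% to 89.7%), against 37.9% of the sites open in MEFs (35.5% to 40.4%). In bin 6 from the weakest the shares were 75.8% and 15.4%. In the strongest bin they were 18.2% (164 of 899, 15.8% to 20.9%) and 0.17% (10 of 5883, 0.0815% to 0.312%). Missing sites were thus concentrated among weaker ESC peaks in both states. Their median pileups were 11, 12 and 10 tags in the 3 ESC libraries, against 27, 31 and 24 at regions open in all 7. Excess regions were weak as well, with median pileups of 8 and 11 in Nanog+Oct4 on days 10 and 12 and of 10 and 16 in NanogN70+Oct4, and none lay in the 2 strongest of 10 bins of the regions open in all 4 late libraries. Of the late sites closed in MEFs, 46.1% were excess (43.9% to 48.4%), and of those open in MEFs 4.86% were (4.57% to 5.17%).

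**Figure D1:**
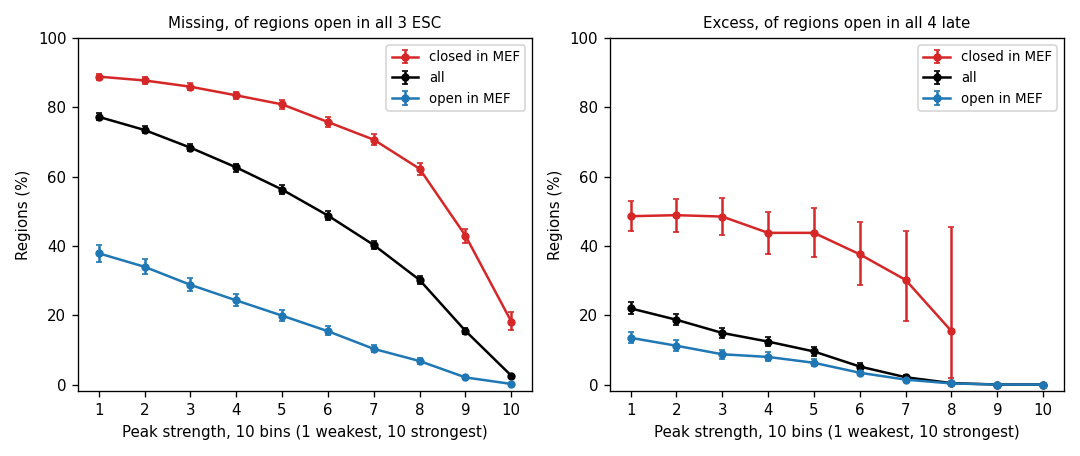
Share of ESC regions that were missing (left) and of late regions that were excess (right), in percent, by peak strength in 10 bins and by MEF state. Error bars are 95% exact binomial intervals and points with fewer than 10 regions are not drawn. In the weakest bin 88.9% of the ESC sites closed in MEFs and 37.9% of those open in MEFs were missing, and in the strongest bin 18.2% and 0.17%.

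Most missing regions had no peak in MEFs or the earlier libraries, whereas most excess regions had one, and both sets were chosen by their state on days 10 and 12. Among all ESC sites closed in MEFs, missing or not, 10.8% had a peak on day 7 with Nanog+Oct4 and 18.7% with NanogN70+Oct4. Of the missing regions, 22008 (68.2%) had no peak in MEFs or in any of the 12 libraries from day 0 to day 8, and 9351 (29.0%) had a peak in at least 1 of these 12. For missing regions closed in MEFs the share open on a given day ran from 0.906% on day 0 to 4.83% on day 7 with Nanog+Oct4, and from 1.98% on day 1 to 8.81% on day 7 with NanogN70+Oct4. Some ESC sites therefore had a peak around day 7 and none on days 10 and 12, in libraries that also held more peaks (84526 and 80881 on day 7). Over the 12 earlier libraries together, 6143 of the 28151 missing regions closed in MEFs (21.8%) had a peak in at least 1. Of the 4106 missing regions open in MEFs, 3208 (78.1%) had a peak in at least 1 of the 12 earlier libraries but only 25 in all 12. In any 1 earlier library 16.2% to 34.8% of them had a peak. The NanogN70+Oct4 day 3 library, in which 9 of 12 leukocyte marker promoters had a peak against 2 or 3 in the other 11 earlier libraries, had a peak in 8.56% of the missing regions closed in MEFs.

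Excess regions had peaks more often on day 8 than on day 0 in both paths, with 1 library a day. Those closed in MEFs had a peak in 8.75% of cases at day 0, 30.7% at day 3 and 47.7% at day 8 for Nanog+Oct4, and in 21.0%, 34.0% and 69.3% for NanogN70+Oct4. Of these 914 regions 796 (87.1%) had a peak in at least 1 earlier library, 39 had one in all 12, and 118 had none before day 10. Excess regions open in MEFs were open in 59.2% of cases on day 0 and 87.2% on day 8 with Nanog+Oct4, and in 70.6% and 85.1% with NanogN70+Oct4, and in both paths day 1 was lower than day 0 (57.4% and 57.8%). Of these 989 regions 313 (31.6%) had a peak in all 12 earlier libraries. The share of shared MEF and ESC sites with a peak also rose from 66.6% on day 0 to 83.2% on day 8 with Nanog+Oct4, and with NanogN70+Oct4 it was 77.7% on day 0 and 77.2% on day 8 and ranged from 66.3% on day 1 to 85.3% on day 7.

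**Figure D2:**
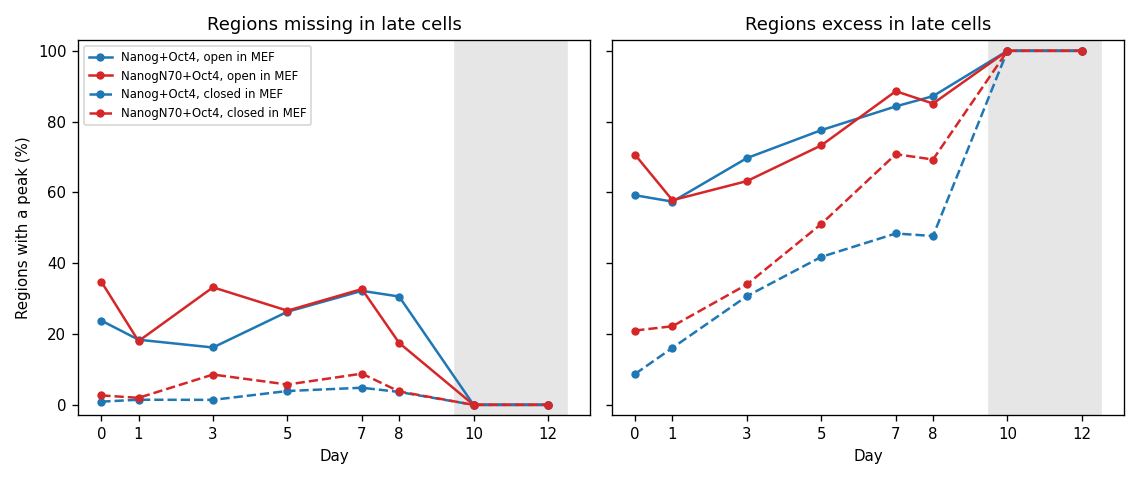
Share of the missing (left) and excess (right) regions with a peak, in percent, by day and path and by MEF state, 1 library per point. The shaded days 10 and 12 are fixed at 0% and 100% by the rule. Excess regions closed in MEFs reached 47.7% (Nanog+Oct4) and 69.3% (NanogN70+Oct4) by day 8, and missing regions closed in MEFs stayed at or under 8.81%.

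Both sets lay mostly away from promoters. A promoter was taken as 2 kb on either side of an annotated transcript start, and other regions as exon, intron or intergenic in that order. Of the missing regions 18.9% were at a promoter (18.5% to 19.3%), 7.06% in an exon, 37.3% in an intron and 36.8% intergenic. Of the excess regions 19.2% were at a promoter (17.5% to 21.1%), 4.68% in an exon, 41.3% in an intron and 34.8% intergenic. The promoter share of the excess regions was 30.4% with equal peak numbers and 44.5% when peaks had to cover at least 0.5 of the region. Promoters made up 71.5% of the regions open in all 7 libraries and 25.5% of those open in any. The median distance to a transcript start was 9.02 kb for missing and 11.2 kb for excess regions, against 8.14 kb for all regions open in any of the 7. Missing regions had a median width of 303 bp, excess regions 678 bp and regions open in all 7 1001 bp.

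**Figure D3:**
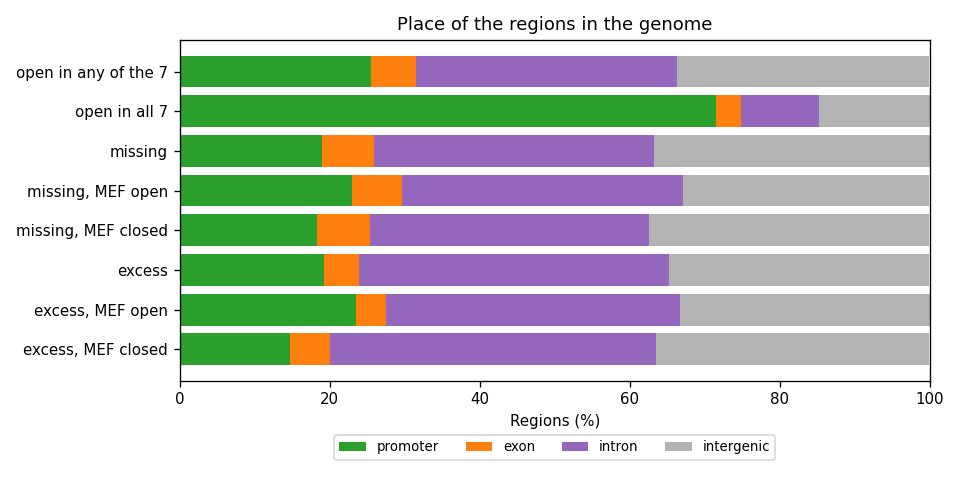
Place of the regions in the genome as a percentage of each set, with promoters defined as 2 kb on either side of a transcript start. Promoters made up 71.5% of the regions open in all 7 libraries, 18.9% of the missing and 19.2% of the excess regions, the last of which was 44.5% when peaks had to cover at least 0.5 of the region.

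Over whole libraries, the share of promoters and the share of MEF sites among the open regions were higher in each of the 4 late libraries than in each of the 3 ESC libraries. The promoter share was 44.2% and 45.1% on days 10 and 12 with Nanog+Oct4 and 48.2% and 42.1% with NanogN70+Oct4, against 31.0%, 29.7% and 32.3% in the ESC replicates and 25.4% in MEFs. The difference could not pass a threshold of 0.05 in this design (44.9% ± 2.53 (SD, n = 4) against 31.0% ± 1.34 (SD, n = 3), exact permutation test, two-sided p = 0.0571, adjusted p = 0.0762 over 4 tests). With 4 libraries against 3 this test cannot give a p below 0.0571. These shares come from the same peak calls as the missing and excess sets. The late libraries are different days and paths and not replicates, so the SD and p describe these libraries only. The difference of 13.9 percentage points fell to 3.29 with equal peak numbers. The share of open regions that were also open in MEFs was 79.0%, 72.2%, 71.3% and 61.4% in the late libraries and 36.7%, 34.6% and 39.1% in ESCs. These groups did not overlap (71.0% ± 7.28 (SD, n = 4) against 36.8% ± 2.26 (SD, n = 3), exact permutation p = 0.0571, adjusted p = 0.0762). The difference of 34.2 percentage points fell to 16.9 with equal peak numbers.

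In GC content the 2 sets were close to open regions in general and below the regions open in all 7 libraries. The median within 100 bp of the summit was 50.7% in missing and 52.2% in excess regions, against 51.2% in regions open in any of the 7 and 61.7% in those open in all 7. At promoters the median ratio of observed to expected CpG was 0.259 in missing, 0.331 in excess, 0.42 in regions open in any of the 7 and 0.79 in those open in all 7, so the promoters missing from the late cells held fewer CpG sites. Repeats marked in lower case in the RefSeq genome covered on average 25.6% of the missing windows, 8.49% of the excess windows and 18.4% of those open in any of the 7. At least 50% of the window was repeat in 22.0% of the missing regions and in 0.736% of the excess regions. Among ESC sites with such windows 84.0% were missing (7088 of 8437, 83.2% to 84.8%), against 42.4% of the other ESC sites (42.0% to 42.8%). Reads of low mapping quality had been removed from all libraries alike.

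Motifs were searched on both strands within 100 bp of the summit with the highest score, as exact letters with N for any base. The octamer of OCT4 (OCT, ATGCAAAT), the SOX core (CNTTGTT), the joint OCT-SOX motif (TTGTNATGCNAA, which overlaps the previous 2), KLF (GGGNGTGG), ESRRB (TCAAGGTCA), AP-1 (TGANTCA), TEAD (ACATTCC), RUNX (TGTGGTT), NFI (TGGCNNNNNGCCA), the E-box of neural and myogenic basic helix-loop-helix factors (CAGCTG), the homeodomain core (TAATTA), RFX (GTTNCCATGGNAAC) and CTCF (CCNCNAGNNGGC) were used here, and TFCP2L1 (CCNGNNNNNNCCNG), the GATA zinc finger factors of the blood and endoderm lineages (AGATAAG), FOX (TGTTTAC), ETS (CCGGAAGT) and NRF1 (GCGCANGCGC) were searched too. Shares below are of distal regions, those away from promoters. A match is a description of the sequence and not a bound site.

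The motif shares of missing distal regions lay on both sides of those of all open regions. The OCT motif was in 2.54% of them, against 2.52% of the distal regions open in any of the 7 libraries and 2.2% of those open in all 7. OCT-SOX was in 0.516%, against 0.308% and 0.255%. KLF was in 14.8%, against 11.5% and 9.49%, and ESRRB in 1.18%, against 0.83% and 0.27%. SOX was in 17.3%, against 15.4% and 12.0%. AP-1 was in 7.21%, against 9.84% and 7.46%. The other fibroblast motifs did not follow it, with TEAD in 5.01%, against 4.43% and 2.75%, and RUNX in 5.48%, against 5.5% and 4.17%. NFI was in 0.623%, against 1.08% and 1.46%, and the E-box in 13.2%, against 16.3% and 18.6%. The motif of the insulator protein CTCF was in 4.33%, against 4.89% and 19.8%, and that of NRF1 in 0.325%, against 0.31% and 64 of 5498 regions (0.898% to 1.48%). At both motifs the missing regions were thus near the regions open in any of the 7 and below those open in all 7. TFCP2L1, a factor of naive cells, had its motif in 14.3% of the missing regions, against 14.8% and 22.0%, so the motifs of pluripotency factors did not all go the same way. The missing regions are by rule a part of the regions open in all 3 ESC libraries. Over all distal regions of that kind OCT was in 2.6%, OCT-SOX in 0.481%, SOX in 16.2%, KLF in 13.4% and ESRRB in 0.93%. In them AP-1 was in 7.34%, TEAD in 4.54%, RUNX in 5.01%, the E-box in 14.7%, CTCF in 8.28% and TFCP2L1 in 15.9%. For OCT, OCT-SOX and AP-1 the missing regions were near these shares. Among distal regions closed in MEFs, those open in all 7 libraries carried OCT more often than the missing ones, in 8.29% (46 of 555, 6.13% to 10.9%) against 2.72% (2.52% to 2.94%). There OCT-SOX was in 1.44% (8 of 555) against 0.578%, SOX in 21.6% against 18.1% and TFCP2L1 in 17.3% against 14.3%. KLF went the other way, in 10.3% (7.87% to 13.1%) against 15.1% (14.6% to 15.5%), as did ESRRB, in 0.36% (2 of 555) against 1.25%. The intervals were apart for OCT and KLF and overlapped for OCT-SOX, SOX, TFCP2L1 and ESRRB. Within 25 bp of the summit OCT was in 2.52% against 0.826%, SOX in 5.77% against 5.75%, and OCT-SOX in none of the 555 against 0.209%. The joint motif was rare in either set, and the printed Nanog and Dppa4 sequences are 2 of the missing regions that hold it. Missing regions open in MEFs carried AP-1 in 11.6% and TEAD in 7.7% of cases, against 6.61% and 4.64% of those closed in MEFs.

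Excess distal regions carried a different set of motifs. The E-box was in 32.5% of them, against 16.3% of the distal regions open in any of the 7 and 13.2% of the missing ones. The E-box share was 22.3% in distal regions open in all 4 late libraries, of which the excess regions are by rule a part. It was as frequent in excess regions open in MEFs (31.7%) as in those closed (33.2%). AP-1 was in 21.3% of the excess regions open in MEFs and 6.54% of those closed. It was in 9.84% of the distal regions open in any of the 7 and 9.24% of those open in all 4 late libraries. NFI was in 7.13% of the excess regions open in MEFs and 2.69% of those closed, against 1.08% and 2.27%. By the same MEF states SOX was in 14.1% and 21.3%, OCT in 2.64% and 4.1%, and the homeodomain core in 4.89% and 7.05%. These motifs were in 15.4%, 2.52% and 4.13% of the distal regions open in any of the 7. In those open in all 4 late libraries they were in 13.4%, 2.42% and 3.61%. The intervals by MEF state did not overlap for AP-1 (18.4% to 24.4% and 4.91% to 8.51%), NFI (5.4% to 9.21% and 1.67% to 4.09%) and SOX (11.7% to 16.8% and 18.5% to 24.3%), and they overlapped for OCT and the homeodomain core. Within 25 bp of the summit the order for OCT was the other way (1.19% open in MEFs and 0.769% closed). Each of these motifs was in a minority of the regions. The fibroblast motifs TEAD and RUNX were in 3.06% and 3.97% of the excess distal regions, against 4.43% and 5.5% of those open in any of the 7. In distal regions open in all 4 late libraries they were in 2.89% and 4.21%. ESRRB was found in 0.07% of the excess distal regions. Among all excess regions, promoters included, the E-box share was 31.1%, and it was also 31.1% in the 4120 regions obtained without Nanog+Oct4 day 10. In the same 4120 regions AP-1 was in 9.39% and NFI in 3.16%, against 13.7% and 4.68% of the 1903 and, for AP-1, 8.89% of the regions open in any of the 7.

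**Figure D4:**
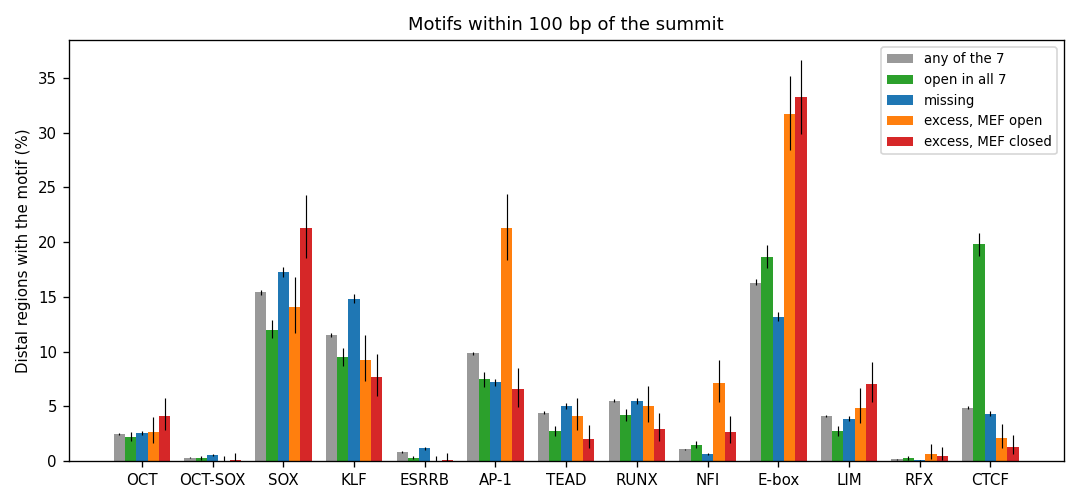
Share of distal regions with each motif, in percent, in regions open in any of the 7 libraries, open in all 7, missing, and excess by MEF state. Error bars are 95% exact binomial intervals. The E-box was in 31.7% and 33.2% of the excess regions by MEF state and in 13.2% of the missing regions. In the regions open in all 7 the E-box was in 18.6% and CTCF in 19.8%.

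Among the 7 libraries compared, the share of distal regions with an AP-1 motif was highest in Nanog+Oct4 day 10. It was in 22.5% and 12.8% of the distal regions of Nanog+Oct4 on days 10 and 12, in 7.79% and 7.45% of those of NanogN70+Oct4, and in 7.25%, 7.23% and 7.2% of those of the ESC replicates, against 34.4% in MEFs. All 4 late libraries lay above the 3 ESC libraries, and the NanogN70+Oct4 libraries lay close to them (late 12.6% ± 7.0 (SD, n = 4) against 7.23% ± 0.0229 (SD, n = 3), exact permutation p = 0.0571, adjusted p = 0.0762). The mean difference of 5.4 percentage points fell to 2.12 without Nanog+Oct4 day 10 and to 2.16 within 25 bp of the summit. With all 7 libraries kept, the late and ESC values overlapped at a minimum score of 100 (exact permutation p = 0.286), with equal peak numbers (p = 0.171) and within 25 bp of the summit (p = 0.229). The OCT motif was in 2.48% and 2.75% of the distal regions of Nanog+Oct4, 2.26% and 2.88% of those of NanogN70+Oct4, and 2.42%, 2.52% and 2.49% of those of ESCs, against 1.13% in MEFs. The late and ESC values overlapped (difference 0.117 percentage points, exact permutation p = 0.571, adjusted p = 0.571), and the sign of the difference changed with equal peak numbers (-0.266) and within 25 bp of the summit (-0.1).

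Each region was given to the protein-coding or miRNA gene with the nearest transcript start within 100 kb, which does not show that it acts on that gene. Over all genes, 28076 of 61558 ESC regions given to a gene were missing (45.6%), 11727 of 20764 genes had a missing region, and 1547 of 21286 late regions were excess (7.27%), in 1308 genes. The genes with most missing regions were mostly long. Etl4 had 28 missing of 45 ESC regions, Pde4d, which encodes a cyclic AMP phosphodiesterase, 24 of 47, and the polarity gene Pard3 23 of 31. Bcat1, which encodes the cytosolic aminotransferase of branched-chain amino acids, had 23 of 26, and Plcb4, which encodes a phospholipase C, 23 of 27. Auts2, Dnah8, Dst, Etv6 and Msi2 had 20 each, of 24 to 34. Bcat1 stood out among them for its length of 82.3 kb, since the others spanned 234 to 1500 kb. Of its missing regions 15 lay within 100 kb (chr6:144989403-145089402), where 18 regions were open in all 3 ESC libraries. The other 2 windows of this size with 15 missing regions lay around Pdpn and Prdm2 (chr4:143221206-143321205, 17 ESC regions) and over the gamma protocadherin cluster (22 ESC regions). Bcat1 and Etv6 lie on chromosome 6, where 55.7% of the ESC sites of the whole chromosome were missing, against 47.6% in the genome.

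Genes with many excess regions included a transcriptional corepressor, Tle3. Gse1 had 5 excess of 16 late regions, with 4 open in MEFs. Tle3, of the Groucho type, and Rxra, which encodes a retinoid X receptor, had 4 each of 10 and 9, with 3 and 4 open in MEFs. Bach2, which encodes a basic leucine zipper factor, had 4 of 7, Sipa1l2 4 of 6, Tanc1 4 of 5 and Auts2 4 of 8. Myt1l, which encodes a neuronal zinc finger factor, and the calcium channel subunit gene Cacna2d3 had 4 of 6 each, of which 1 each was open in MEFs. In all, 11 genes had at least 4 excess regions, and genes with equal numbers were taken in alphabetical order. Among the densest 100 kb windows, with 5 excess regions each, were those at Gse1 (chr8:120425494-120525493) and by Ubash3b (chr9:41273268-41373267), where no region was open in all 3 ESC libraries.

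The strongest single members included the following. The top missing region lay near the end of the Y chromosome (chrY:90739256-90740631), with pileups of 92, 97 and 81 in ESCs, 7 in MEFs and no peak in the late libraries. Next was chr1:143555197-143556066, 80511 bp from Cdc73, with 57, 61 and 53. It was followed by chr6:137669007-137670345 near the actin regulator gene Eps8 (61, 57 and 66) and by an intron of Setmar (47, 55 and 42). The fifth lay at chr1:150496632-150497393, 30467 bp from Prg4 (55, 63 and 40). Apart from the region on Y all were closed in MEFs. The regions near Eps8 and in Setmar lie on chromosome 6, the autosome with the highest share of missing ESC sites. Among the top excess regions, the promoter of Spsb4 had pileups of 16 and 27 on days 10 and 12 with Nanog+Oct4, 28 and 35 with NanogN70+Oct4, and 24 in MEFs. An intron of Wnt10a, which encodes a secreted WNT ligand, had 24, 29, 24 and 35, and 6 in MEFs. A site 2341 bp from Upk3bl had 24, 23, 27 and 37, and 90 in MEFs, and an intron of Smarcd3, which encodes a BAF subunit, had 27, 25, 28 and 45, and 40 in MEFs. These 4 excess regions were thus all open in MEFs.

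Naive pluripotency genes kept some promoters and lacked more than 50% of their ESC sites. The list of 15 naive factors had 147 ESC regions, of which 81 were missing (55.1%) against 45.6% over all genes, in 14 of the 15 genes. Their median share of missing regions was 54.5%, against 40.0% over all genes. Away from promoters 68 of 110 ESC regions of the list were missing (61.8%), against 59.1% over all genes, and at promoters 13 of 37 (35.1%), against 24.5%. Esrrb, a nuclear receptor that binds beside NANOG, had 15 missing of 24 ESC regions, Zfp42 11 of 14, Tbx3 10 of 17, Klf5 9 of 11, Nr5a2 6 of 8 and Prdm14 6 of 11. Klf2, the remaining gene, had none of 4. No naive factor had an excess region. The strongest missing site of the list lay 25107 bp from Klf5 (chr14:99324261-99325147), with ESC pileups of 34, 45 and 31 and 10 in MEFs. At Esrrb the strongest was an intronic site with an OCT match (chr12:86478480-86479375), with 21, 23 and 20, closed in MEFs and in all 12 earlier libraries. The missing region over the start of Nanog (chr6:122706909-122707692), whose sequence is printed above, had 33, 56 and 35.

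Of the 15 naive factors all had a promoter peak in the 3 ESC libraries, 8 had one in all 4 late libraries as well, and none lacked it in all 4. Over all protein-coding genes 15253 promoters were open in all 3 ESC libraries, of which 12921 (84.7%) were open in all 4 late libraries and 798 (5.23%) in none. The promoter of Klf4 had pileups of 22, 23, 48 and 64 in the late libraries and 37, 36 and 29 in ESCs, and that of Esrrb had 8, 6, 11 and 16 against 45, 70 and 67. The Zfp42 promoter was open in NanogN70+Oct4 on day 12 alone among the late libraries (23, against 59, 91 and 53 in ESCs), as was that of Tcl1, a coactivator of AKT signalling (8, against 14, 17 and 19). Within 2 kb of a Nanog start the late libraries had 1 peak, of 7 tags on day 12 with Nanog+Oct4. Of the 15 promoters 14 had a peak on NanogN70+Oct4 day 12, the late library with the highest pileups, against 10 on NanogN70+Oct4 day 10 and 9 and 11 on Nanog+Oct4 days 10 and 12.

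General pluripotency genes varied from gene to gene. Of 19 genes, 89 regions were open in all 3 ESC libraries and 40 were missing (44.9%), close to the 45.6% of all genes. Sox2 had promoter pileups of 18, 29, 30 and 87 in the late libraries and 38, 47 and 29 in ESCs, and the zinc finger gene Sall4 had 13, 21, 26 and 44 against 40, 45 and 26, with no peak in MEFs. Dppa4, which encodes a DNA-binding protein of pluripotent cells, was the 1 general gene whose promoter was missing (25, 21 and 21 in ESCs), and all 4 of its ESC regions were missing. Its neighbour and partner Dppa2 had 6 missing of 7, with a late promoter peak on NanogN70+Oct4 day 12 alone (8 tags). The promoters of Dppa5a (7) and Tdgf1 (13), the latter encoding a NODAL co-receptor, were also open in that late library alone. The miRNA clusters of Mir290a and Mir302b, whose miRNAs are characteristic of pluripotent cells, had a promoter peak in both NanogN70+Oct4 libraries (7 and 17, and 12 and 11) and in neither Nanog+Oct4 library. Lin28a showed the same pattern (16 and 20), and so did Fgf4 (7 and 18) and Nr0b1 (6 and 6) of the naive list. Pou5f1 could not be read, since the cells carry an Oct4 reporter and a transduced Oct4, and ESC replicate 2 had no peak at its promoter where the others had 612 and 591.

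**Figure D5:**
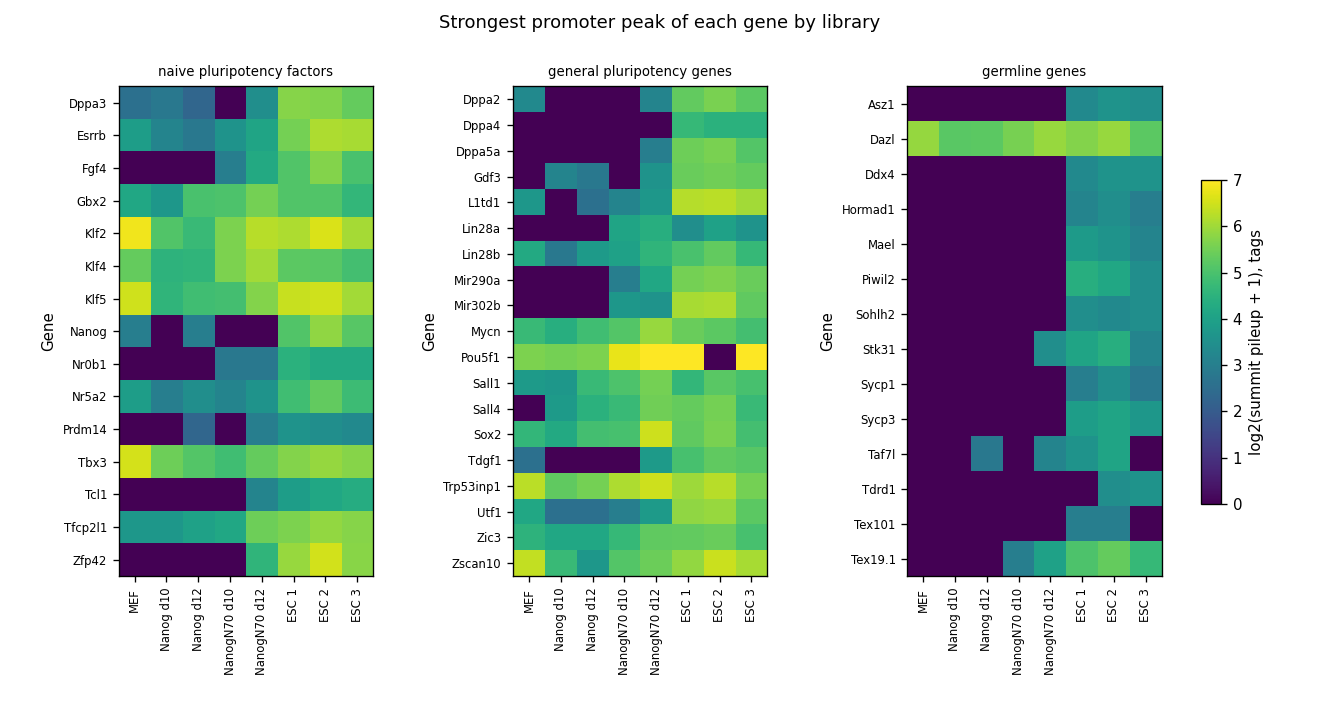
Highest summit pileup within 2 kb of a transcript start, as log2 of the pileup plus 1, for the naive, general and germline genes in MEFs, the 4 late libraries and 3 ESC libraries. The darkest colour marks no peak, the scale stops at 7 with higher values drawn as 7, and pileups are not scaled to depth. Zfp42 was open on NanogN70+Oct4 day 12 alone among the late libraries (23 tags), and 8 of 14 germline promoters were open in all 3 ESC libraries and in no late library.

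Germline genes had the highest share of missing promoters of any list of at least 10 promoters open in ESCs. Of 14 genes 11 had a promoter peak in all 3 ESC libraries, and 8 of these had none in any late library, against 5.23% over all protein-coding genes. They were Ddx4, Sycp1, Sycp3, Mael, Hormad1, Piwil2, Asz1 and Sohlh2, genes of the germ cell helicase, the meiotic axis and the piRNA pathway among them. Their ESC pileups were low, between 6 and 20 tags, around the median of the missing set, and none had a promoter peak in MEFs. Sycp3 had 14, 16 and 12, and Piwil2, a PIWI protein, 20, 17 and 10. Tex19.1 was open in both NanogN70+Oct4 libraries (7 and 15, against 32, 40 and 25 in ESCs). Dazl was open in all 8 libraries shown, with 58 tags in MEFs.

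A few promoters of formative, primed and lineage genes were missing, too few to set these lists apart from all genes. Of 14 formative and primed genes 39 of 76 ESC regions were missing (51.3%, against 45.6% over all genes). Of their 13 promoters open in ESCs 2 were missing (1.92% to 45.4%), an interval that holds the 5.23% of all promoters. The promoter of Otx2, a transcription factor of the primed state, was missing (13, 22 and 13 in ESCs and 9 in MEFs), as was that of the NODAL inhibitor gene Lefty2 (13, 19 and 12). Grhl2, an epithelial transcription factor, had 10 missing of 14 regions and a promoter peak in all 4 late libraries. Of 15 epithelial genes 21 of 45 ESC regions were missing (46.7%, near the 45.6% of all genes). None of their 14 promoters open in ESCs was missing, and 4 of the 14 were open in all 4 late libraries, against 84.7% over all genes. The promoter of Cdh1, the epithelial cadherin, had 4, 0, 8 and 14 tags in the late libraries, where 0 stands for no peak, and 44, 52 and 45 in ESCs. The promoters of the regulators Cdx2 and Hand1 were missing too, 2 of the 13 of their list that were open in ESCs (1.92% to 45.4%). Of the 4 leukocyte promoters open in ESCs 3 were missing, with 8, 14 and 9 tags in ESCs at Ptprc. Pathway genes of LIF, BMP, WNT and FGF signalling kept their promoters (18 of 18 open in all 7 libraries), as did the DNA methylation enzymes (8 of 8), while 78 of 161 (48.4%) and 27 of 53 (50.9%) of their ESC regions were missing, against 45.6% over all genes.

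The remaining lists gave shares on either side of that of all genes. Missing regions were 35.1% of the ESC regions of neural regulators, 15.4% of those of Hox genes, 33.9% of those of TEAD and YAP genes, 38.7% of those of AP-1 genes and 75.0% of those of germline genes (18 of 24). They were 45.0% for mesenchymal transcription factors, 46.6% for fibroblast matrix genes, 47.4% for TGF-beta genes, 40.0% for cell cycle barrier genes, 40.5% for endoderm, mesoderm and trophoblast regulators, 42.9% for leukocyte markers, 33.3% for interferon genes and 37.2% for housekeeping genes. The lists hold 14 to 161 ESC regions each, and regions near 1 gene are not independent of each other.

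Excess regions lay at few genes of the lists. Over all genes 7.27% of the late regions were excess, and the lists hold 4 to 60 late regions each, so the counts are small and none of these shares was tested. The naive (18 late regions), formative (20), epithelial (9), DNA methylation (12), interferon (9) and leukocyte (4) genes had no excess region, nor did the endoderm, mesoderm and trophoblast regulators (17). The share was 22.2% for cell cycle barrier genes (4 of 18), 17.4% for fibroblast matrix and cytoskeleton genes (4 of 23), 16.7% for AP-1 genes (5 of 30) and for neural regulators (7 of 42), 13.6% for TEAD and YAP genes (3 of 22) and 13.0% for Hox genes (3 of 23). It was 8.33% for the signalling pathway genes (5 of 60), 1 of 4 for germline genes, and 4.17% to 5.56% in the other 4 lists, which had 1 excess region each. Of 16 neural regulators 6 had an excess region, and all 7 of their excess regions were closed in MEFs. At 1819 bp from a start of Pax6 (chr2:105689438-105690664) the pileups were 14 and 23 with Nanog+Oct4 on days 10 and 12 and 23 and 52 with NanogN70+Oct4, and no library before day 10 had a peak there. An intron of Pax3 (chr1:78139182-78139880) had 5, 21, 25 and 47, and a second Pax3 site (chr1:78190167-78191129) had 8, 23, 16 and 33. Other sites were given to Irx3, Olig3, Foxb1 and Pax7, with lowest late pileups of 5 to 7. In each of these the pileup on Nanog+Oct4 day 10 was the lowest or equal to the lowest of the 4.

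Of 26 fibroblast matrix and cytoskeleton genes 4 had 1 excess region each, and of 17 mesenchymal transcription factors 1 had 1, of 22 late regions. A site 6956 bp from Col1a1, which encodes the main fibrillar collagen, had pileups of 16, 16, 15 and 21 in the late libraries and 70 in MEFs, and it had a peak in all 12 earlier libraries. A site given to Runx2 (chr17:44709620-44710315) had 11, 7, 6 and 11, and 66 in MEFs. The sites at Fn1, Col5a1 and Thy1 were closed in MEFs. At promoters, 17 of the 26 fibroblast genes were open in all 3 ESC libraries too, and no list had a promoter that was open in all 4 late libraries and no ESC library. Over all protein-coding genes there were 23 such promoters, of which 19 were open in MEFs. The cell cycle inhibitor gene Cdkn1c had 3 excess of 7 late regions, 1 of them open in MEFs, and of the 5 excess regions of the AP-1 list Bach2 held 4 and Atf3 1.

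The share of ESC sites that were missing varied little between the autosomes and X, with chromosome 6 apart. It was 41.1% to 50.1% on the other autosomes, 45.3% on X and 55.7% on chromosome 6 (2457 of 4413), and on Y 8 of only 13 were missing (61.5%). At regions open in all 7 libraries, the median pileup on chromosome 6 relative to all autosomes was 1.22, 1.23 and 1.21 in the ESC replicates and 0.882, 0.944, 0.857 and 0.9 in the late libraries, and its part in the share was not tested. The ratio of the other autosomes lay between 0.903 and 1.17 in ESCs. Nanog, Bcat1, Etv6 and the top missing regions near Eps8 and in Setmar lie on chromosome 6. On X 21 of 503 late regions were excess (4.17%), against 8.53% in the genome. No excess region overlapped Nanog or Pou5f1, whose coding sequences the vectors carried, and 1 lay within Ss18, a stretch of whose protein NanogN70 holds, which held 10 regions with a peak in any of the 7 libraries, 2 of them missing.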

How the data were processed

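ATAC-seq was made from the 20 samples named in the report. By the methods and labels, reads were trimmed (Trim Galore 0.6.4) and aligned to mm10 (Bowtie2 2.4.5), and the authors removed low-quality and mitochondrial reads with SAMtools 1.16.1 and called peaks in each library separately with MACS 1.4.2, without a shift model and keeping duplicates. Per peak the authors deposited a score, which in MACS is a scaled negative log10 of the p-value and was at least 50 in the files, and per summit a signal, the tag pileup, which is not scaled to depth. No input control is named, and the methods and labels differ on the number of cells per library.

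Peaks on chromosomes 1 to 19, X and Y (at most 44 peaks per library lay elsewhere) were merged into regions when they overlapped by 1 bp, and a region was open in a library with a peak in it. Annotation was GENCODE M21 on GRCm38 (UCSC mm10), and every peak lay inside the reference chromosomes. Of 278 genes in 19 lists 276 were matched by symbol. The 3 ESC and 4 late libraries were compared by exact permutation tests over libraries, adjusted by the Benjamini-Hochberg method over 4 tests, and each share was given a 95% interval by the exact Clopper-Pearson method. The genes named were those of the lists, the 10 with most missing and most excess regions, the 5 strongest regions and the 3 densest windows of 100 kb of each set. One item that these rules selected is not reported here. The members, gene lists, motifs and tests were chosen with earlier results of these data known. Scripts ran in Python 3.11.15 with numpy 2.4.6, pandas 2.3.3, SciPy 1.17.1 and matplotlib 3.10.9, and the merging and calling were tested on simulated peaks.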

Additional observations from a re-analysis of the deposited data

How the results depend on the processing

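The count of missing regions was 15079 when a score of 100 was needed for a peak in ESCs and any late peak was still counted, and 10237 with equal peak numbers, and the other alternatives gave 21563 to 42502. Excess regions numbered 937 at a minimum score of 100 in every library, 594 when this score was needed in the late libraries alone, 3334 with equal peak numbers and 867 when peaks had to cover at least 0.5 of the merged region. Leaving out 1 library at a time gave 33035 to 42502 missing regions, the highest without ESC replicate 3, and 1998 to 4120 excess regions, the highest without Nanog+Oct4 day 10.

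With a minimum score of 100 everywhere, this minimum only where a peak was needed, equal peak numbers and a cover of 0.5, the share of missing regions open in MEFs was 13.7%, 13.3%, 14.0% and 10.7%, and without 1 library 12.1% to 14.5%. For excess regions these shares were 57.0%, 62.1%, 68.8% and 55.8%, and without 1 library 32.3% to 54.7%. Of the missing regions 20.8% were at a promoter at a minimum score of 100, 20.9% with the cover of 0.5, 17.1% when regions with a peak of the other group within 1 kb were left out and 8.86% when a promoter was 500 bp on either side. For excess regions the promoter shares under these settings were 25.4%, 44.5%, 14.9% and 12.5%, with 30.4% at equal peak numbers and 16.8% to 20.8% without 1 library. Genes nearest to an excess region fell in number from 1308 to 574, and genes nearest to a missing region from 11727 to 8017, when the start had to lie within 10 kb. The cause of these changes was not tested.

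Regions merged from the 7 libraries alone and the autosomes alone moved no count by over 1.5 times and no share outside its interval. The difference in OCT share between late cells and ESCs changed sign with equal peak numbers (-0.266 percentage points) and within 25 bp of the summit (-0.1). The differences in promoter share, MEF share and AP-1 share kept their sign under every alternative run, at p of 0.0571 to 0.286. The AP-1 groups no longer separated at a minimum score of 100 (p = 0.286), with equal peak numbers (p = 0.171) and within 25 bp (p = 0.229), by exact permutation tests. Without 1 library the smallest possible p is above 0.0571, so those p-values say nothing about stability. No paired analysis was possible because the groups compared share fewer than 2 replicate numbers. Pileups are not scaled to depth, depth is unknown, and each late library stands alone for its day and path.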
